A study of Homo sapiens with 4 samples.

Results

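The proteasome genes are the genes that encode the subunits of the proteasome, its activators, its inhibitor and its dedicated assembly factors. They were taken as every gene whose single symbol in the platform annotation is PSM, a letter from A to G and a number. This gave 42 of the 19775 genes with a single symbol. Each gene was read at its brightest probe set, a group of short probes for a transcript, and all 42 passed the signal filter that left 11938 genes for testing. Z138 is an established human line of mantle cell lymphoma, a lymphoma of B cells that typically expresses the transcription factor SOX11. Total RNA from this line was measured on 4 arrays of the Affymetrix U133 Plus 2.0 type. The control group is 2 samples with scramble hairpins, shControl.1 and shControl.2. The SOX11 knockdown group is 2 samples, shSOX11.1 and shSOX11.3. All 4 samples carried a lentiviral short hairpin RNA stably, each a different construct on an array of its own. Since no label describes separate cultures, the p-values cover the spread among the 4 samples alone. That spread may be technical, and within a group array and construct cannot be told apart. The series text calls the cells stably transduced clones without giving the number of clones.

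The proteasome degrades proteins that carry ubiquitin chains. Its barrel-shaped core particle is built of an alpha ring that gates entry and a beta ring that holds the protease sites. A regulatory particle sits on the core. Its base unfolds substrates with a ring of ATPases, and its lid removes the ubiquitin. Lymphoid cells express the immunoproteasome, in which PSMB8, PSMB9 and PSMB10 replace the constitutive protease subunits PSMB5, PSMB6 and PSMB7 and which cuts peptides for presentation on MHC class I. Mantle cell lymphoma is treated with inhibitors of the PSMB5 site. The comparison asked whether transcripts of this machinery differed when SOX11 was lowered.

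Interferon induces the immunoproteasome genes and the activator gene PSME1 and is known to act on them through elements near their start sites, so their promoters are shown here. RefSeq windows (GRCh38.p14) of 160 bases before to 20 bases after the start site are printed 5′ to 3′ on the gene's own strand. Capitals mark, in either orientation, the core of the interferon-stimulated response element (GAAA, any 2 bases, GAAA) and TGACNNNGC, an element of the type bound by NFE2L1, the factor that raises proteasome genes when the proteasome is short.
PSMB8, chr6:32844028-32844207, - strand: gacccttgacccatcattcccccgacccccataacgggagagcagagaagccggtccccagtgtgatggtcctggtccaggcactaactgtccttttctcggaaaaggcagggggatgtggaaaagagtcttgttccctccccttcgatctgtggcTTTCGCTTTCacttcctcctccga
PSMB9, chr6:32854032-32854211, + strand: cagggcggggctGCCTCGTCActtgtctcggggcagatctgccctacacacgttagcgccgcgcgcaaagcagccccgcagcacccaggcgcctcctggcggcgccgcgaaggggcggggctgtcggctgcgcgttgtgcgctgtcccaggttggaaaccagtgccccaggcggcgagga
PSMB10, chr16:67936831-67937010, - strand: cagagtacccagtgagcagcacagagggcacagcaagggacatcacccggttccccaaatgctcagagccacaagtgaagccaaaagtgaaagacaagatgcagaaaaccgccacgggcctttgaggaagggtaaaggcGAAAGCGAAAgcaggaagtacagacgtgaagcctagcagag
PSME1, chr14:24136034-24136213, + strand: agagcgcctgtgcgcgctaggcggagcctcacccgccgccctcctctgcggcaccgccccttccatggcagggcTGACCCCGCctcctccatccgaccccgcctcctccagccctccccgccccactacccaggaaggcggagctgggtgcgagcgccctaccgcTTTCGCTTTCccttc
PSMB8, PSMB10 and PSME1 held the interferon core next to the start site. PSMB9 did not hold it in the window searched, and both PSMB9 and PSME1 held TGACNNNGC. For a gene with several windows, one with the interferon core was shown where there was one. Of the proteasome genes 6 had more than 1 window.

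Motifs were searched on both strands in windows of 300 bases, 250 before and 50 after the start site, and 36 of the 42 genes had a window. The interferon core was in 6 of the 36 genes (16.7%), against 3.94% of the 9705 tested genes with a window and 4.38% of all 27305 genes with a window. The others with it were PSMB4, PSMA4 and PSMG4. TGACNNNGC was in 13 of the 36 genes (36.1%), against 19.98% of tested genes and 16.1% of all genes. ACAANG, the short core that SOX proteins bind, was in 12 of the 36 genes (33.3%), against 34.3% of tested genes and 40.3% of all genes. The motifs can overlap each other. A match describes the letters only.

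SOX11, the hairpins' target, read 797 and 787 in the shControl group against 335 and 339 in the shSOX11 group (2.35-fold lower, log2 difference -1.23, SE 0.15, limma adjusted p = 0.131). Median signals of the arrays ran from 23.9 to 25.7. Bright signals were lower on shSOX11.3, where the 99th percentile was 4755 against 5306 to 5358 on the other 3 arrays. Actin control probes at the 3′ end were brighter than those at the 5′ end, a measure of how intact and fully labelled the RNA was, by 11.6 times in each shControl sample, 7.29 times in shSOX11.1 and 5.31 times in shSOX11.3. The same ratio for GAPDH did not separate the groups, at 0.978 and 1.06 in shControl against 1.01 and 1.03 in shSOX11. Of 8 B-cell markers 7 were measured. Of these, 5 exceeded the signal threshold of 24.8, the median of all values, in all 4 samples. The summed signal of the 7 was 17329 and 17354 for shControl against 14644 and 13900.3 for shSOX11. For other cell types, the markers above the threshold in all 4 samples were 0 of 10 myeloid (sums from 136 to 182), 3 of 14 T and NK cell (524 to 601), 1 of 3 erythroid (79.6 to 126) and 5 of 11 epithelial and stromal (7759 to 9019.8). Below it in all 4 samples were 5 of the myeloid, 5 of the T and NK cell and 5 of the epithelial and stromal markers. Most of the epithelial and stromal sum came from VIM, at 7046 and 6535 in shControl against 7364 and 6377 in shSOX11. The sums of these 4 lists overlapped between the groups for the myeloid, erythroid and epithelial and stromal markers and were lower for shSOX11 for the T and NK cell markers. The part of the actin ratio, of the B-cell markers and of the lower bright signals in the results below was not tested.

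The proteasome genes lay slightly lower by the mean of the shSOX11 arrays, through shSOX11.3 and not shSOX11.1, and no single difference exceeded the spread between arrays by the test used. By the mean log2 difference 35 of 42 were lower and 7 higher, where 58.1% of all 11938 genes were lower. The median log2 difference was -0.14, against -0.063 over all genes. The differences ran from 1.31-fold lower for PSMB9 to 1.16-fold higher for PSME4. In limma, a linear model with variances moderated across all genes, 0 of 42 passed an adjusted p of 0.05, where 0% of all genes did. At an unadjusted p under 0.05 there were also 0 of 42, against 8.38% of all genes (4.98% lower and 3.4% higher). Limma without the intensity trend and limma's robust fit gave 0 of 42 by either count as well. Limma adjusted p over the 11938 genes lay between 0.598 and 0.992 for the 42 genes.

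The arrays bounded the size of these differences. The 95% interval of the log2 difference included 0 for all 42 genes, lay within 2-fold in either direction for all 42, and within 1.5-fold for 31. It reached past 1.5-fold lower for 10 genes and past 1.5-fold higher for 2. A separation of 1.5-fold in all 4 comparisons of single arrays between the groups was met by 0 of 42 genes, against 2.69% of all genes.

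**Figure D1:**
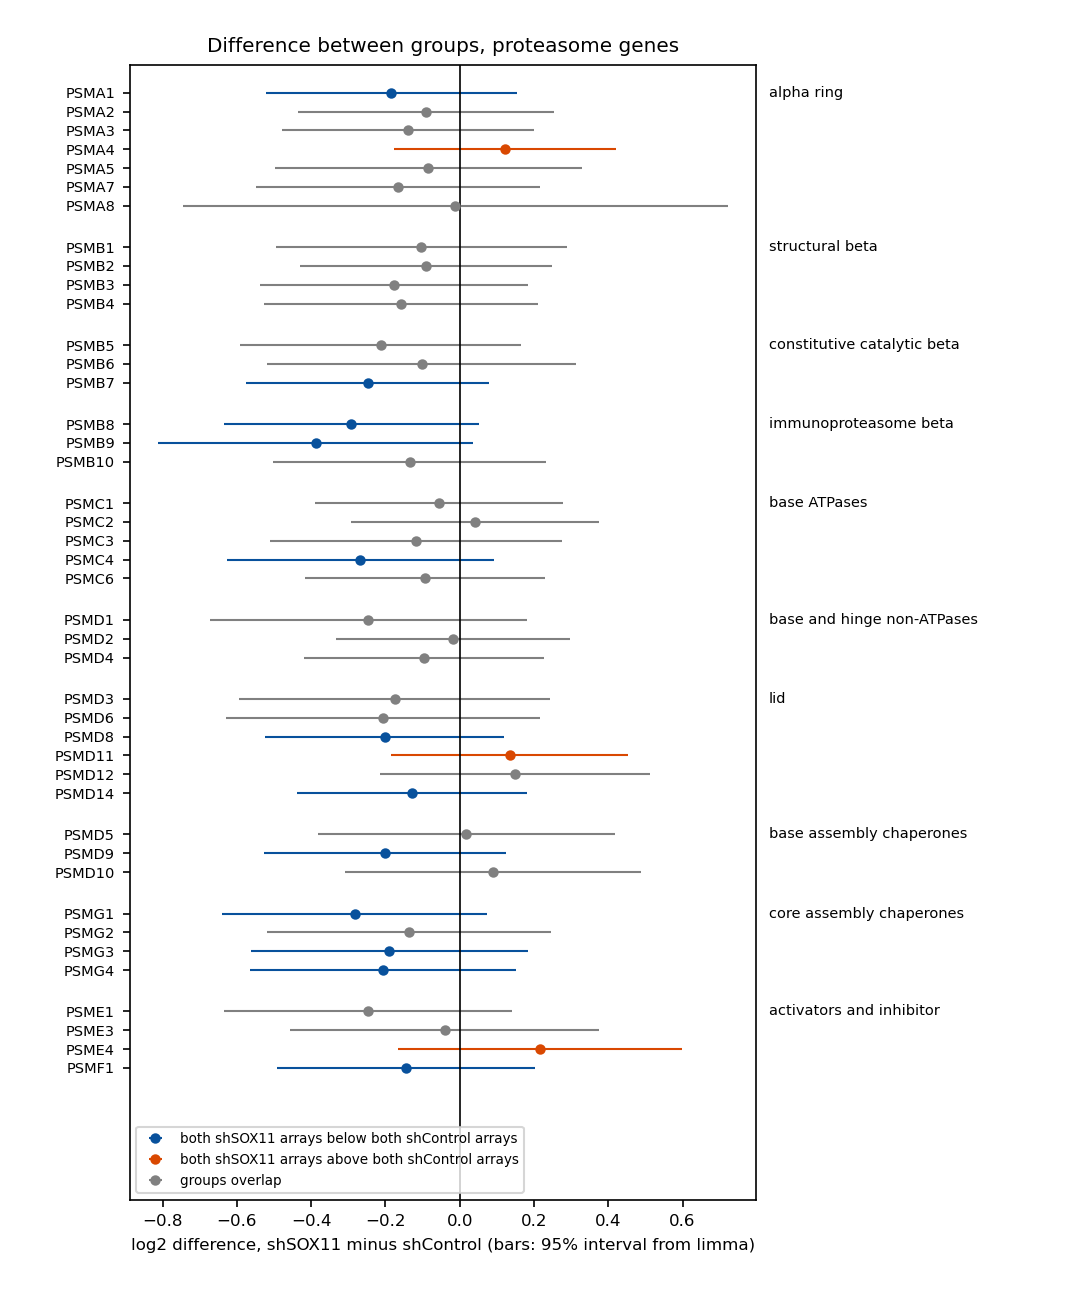
Log2 difference in signal between the shSOX11 and shControl groups (x axis) for each of 42 proteasome genes, grouped by role, with 95% intervals from limma (n = 2 arrays per group). All 42 intervals cross 0, and blue and orange mark the 12 lower and 3 higher genes whose groups do not overlap.

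The groups did not overlap for 15 genes. Both shSOX11 arrays lay below both shControl arrays for 12 of 42 genes, where 24.9% of all genes did so, and above them for 3 of 42, where 16.2% did. The lower share was thus near that of all genes. Named after their values were seen, the 12 were the core subunits PSMA1, PSMB7, PSMB8 and PSMB9, the ATPase PSMC4, the lid subunits PSMD8 and PSMD14, the assembly factors PSMD9, PSMG1, PSMG3 and PSMG4, and the inhibitor PSMF1. The 3 higher genes were PSMA4, PSMD11 and PSME4. With each array centred on its median the counts were 8 and 6, where 17.6% and 23.3% of all genes did so, and 31 of 42 genes were lower by the mean, where the share of all genes that were lower went from 58.1% to 47.3%.

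Most of the shift lay on a single array, which is also a single construct. On shSOX11.3 the signal was the lowest of the 4 arrays for 33 of 42 genes, against 39% of all genes. On shSOX11.1 it was the lowest for 2 of 42, against 23.2% of all genes. Against the shControl mean, the 42 genes had a median log2 difference of 0.021 for shSOX11.1 and of -0.27 for shSOX11.3. Over all genes these medians were -0.0043 and -0.098. Between the shControl arrays the median of the 42 genes was -0.066 (shControl.2 minus shControl.1). Against the shControl mean 36 of the 42 genes were lower on shSOX11.3 and 17 on shSOX11.1, where 59.5% and 50.6% of all genes were. Both shSOX11 values share the same shControl mean.

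Fits that leave out an array give these values too. Without shSOX11.3 the median of the 42 genes was 0.021, with 25 genes higher and 17 lower. Without shSOX11.1 it was -0.27, against -0.098 over all genes. Such a fit borrows the spread of the complete group for the lone array, which is an assumption. Of the 42 genes 25 were among the 1194 brightest genes tested. These 1194 had a median of -0.16 on shSOX11.3 and 0.0095 on shSOX11.1, and 691 of them (57.9%) were lowest on shSOX11.3. The 25 proteasome genes among them had medians of -0.30 and 0.037, and 21 of the 25 were lowest on shSOX11.3. After quantile normalization, which gives all arrays the same distribution of signals, the median of the 42 genes was -0.075 and that of all genes -0.050.

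**Figure D2:**
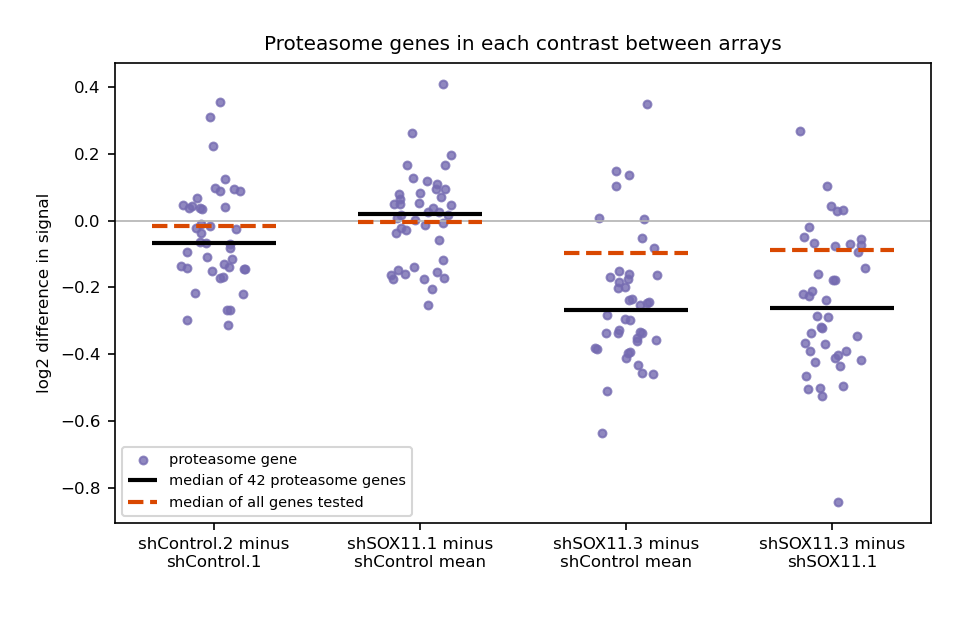
Log2 difference in signal (y axis) of each of 42 proteasome genes in 4 contrasts between arrays, with points spread sideways for legibility, the median of the 42 as a solid line and that of all genes tested as a dashed line. The medians of the 42 are -0.066, 0.021, -0.27 and -0.26 from left to right, against -0.016, -0.0043, -0.098 and -0.087 for all genes.

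The immunoproteasome subunits held the lowest log2 difference of the 42 at the probe sets used. A second probe set of the structural subunit PSMB1, about as bright as the one used, had a lower log2 difference of -0.45. PSMB9, the inducible counterpart of PSMB6, read 1982 and 1793 in shControl, then 1711 in shSOX11.1 and 1213 in shSOX11.3. Both shSOX11 arrays lay below both shControl arrays, and shSOX11.3 lay farthest down. The difference was 1.31-fold (log2 means 10.88 ± 0.10 and 10.49 ± 0.35, SD, n = 2 each; log2 difference -0.39, SE 0.19, limma adjusted p = 0.598). PSMB9 had the smallest p of the 42 at the probe sets used, 0.0686 unadjusted in limma. Without shSOX11.1 its log2 difference was -0.64 (limma adjusted p = 0.0161), and without shSOX11.3 it was -0.14 (limma adjusted p = 0.634). PSMB8, which replaces PSMB5, was at 1673 and 1593 against 1447 and 1228. The order of its arrays was that of PSMB9, with a log2 difference of -0.29 (SE 0.15, limma adjusted p = 0.615). PSMB10, which replaces PSMB7, was at 1191 and 1221 against 1227 in shSOX11.1 and 984 in shSOX11.3. Its shSOX11.1 value thus lay above both shControl arrays, and its log2 difference of -0.13 (SE 0.16) turned to 0.025 without shSOX11.3. Each of these 3 genes has 1 probe set with a single symbol, so no second reading of them was made.

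The constitutive protease subunits were all lower by the mean, with log2 differences from -0.25 to -0.10. PSMB5, the chymotrypsin-like subunit that proteasome inhibitors bind, read 1602 and 1714 in shControl, 1624 in shSOX11.1 and 1258 in shSOX11.3. Its shSOX11.1 value lay between the shControl values (log2 difference -0.21, SE 0.17, 95% interval -0.59 to 0.17, limma adjusted p = 0.710). PSMB6, the caspase-like subunit, was at 1714 and 2126 against 2037 and 1553. The groups overlapped, the shControl arrays themselves were 0.31 apart on the log2 scale, and the log2 difference was -0.10 (SE 0.18). PSMB7, the trypsin-like subunit, was at 5018 and 4455 against 4235 and 3743, without overlap (-0.25, SE 0.14, limma adjusted p = 0.647). A dim second probe set of PSMB7 went the other way, at 79.2 and 88.4 against 102 and 113, and the mean of both gave 0.056. Whether the inducible subunits differed more than their constitutive counterparts was not tested.

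The structural beta subunits, which carry no protease site, all had, at the probe set used, shSOX11.1 within or above the shControl values and shSOX11.3 below them. PSMB1 was at 6478 and 6673 against 7186 and 5208. A second probe set of PSMB1 lay lower on both shSOX11 arrays, at 7128 and 7698 against 6782 and 4308 (log2 difference -0.45), and a dim further one higher on both, at 28.1 and 25.5 against 31.3 and 35.1. PSMB4, on which core assembly depends, was at 8308 and 7706 against 8209 and 6267. Over PSMB1, PSMB2, PSMB3 and PSMB4 the log2 differences ran from -0.18 to -0.090, with medians of 0.045 on shSOX11.1 and -0.34 on shSOX11.3.

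In the alpha ring 6 of 7 genes were lower by the mean and 1 was higher, with log2 differences from -0.18 to 0.12. PSMA1 was at 5960.3 and 4851 against 4664 and 4804. Its shControl arrays differed by more than the groups did, and its probe set ends in _x_at, a mark of possible cross-hybridization that the probe sets used for PSMA7, PSMD4 and PSME3 share. PSMA4 was the subunit that lay higher on both shSOX11 arrays, at 5333 and 5675 against 5933 and 6046 (0.12, SE 0.13, limma adjusted p = 0.789). PSMA7 was at 5515 and 5456 against 5682 and 4199, and PSMA5 at 3762 and 3528 against 4087 and 2889.5. In both the shSOX11 arrays lay on either side of the shControl arrays. PSMA8, the testis form of PSMA7, was the dimmest member, at 78.9 and 92.1 against 113 and 63.1, and had the widest standard error of the ring (log2 difference -0.012, SE 0.32). The lowest signal of any other member on any array was 224.

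The ATPases of the base thread substrates into the core. PSMC4 was at 1008 and 917 against 864 and 738, without overlap (log2 difference -0.27, SE 0.16, limma adjusted p = 0.649). PSMC2 was the 1 of 5 that was higher by the mean, at 4780.2 and 3972 against 4600.4 and 4371, with both shSOX11 arrays between the shControl arrays. PSMC1, PSMC3 and PSMC6 had log2 differences of -0.056, -0.12 and -0.093 with overlapping groups. The non-ATPase subunits of the base overlapped too. PSMD1, a large scaffold subunit, was at 1971 and 1958 against 1987 and 1379.7, so that its log2 difference of -0.25 (SE 0.19) came from shSOX11.3. Its second probe set lay at 1179 and 1245 against 1444 and 1273, higher on both shSOX11 arrays. PSMD2, a docking subunit for substrate shuttles, was nearly level at 1643 and 1683 against 1682 and 1604 (-0.018, SE 0.14, 95% interval -0.33 to 0.30). PSMD4, a ubiquitin receptor, was at 2599 and 2766 against 2669.9 and 2358.

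The lid held members on both sides, 4 lower and 2 higher. PSMD14, the enzyme that removes ubiquitin chains from substrates, was at 4484 and 4279 against 4209 and 3814, without overlap (log2 difference -0.13, SE 0.14, limma adjusted p = 0.788). PSMD8 was at 2012 and 1855 against 1621 and 1741 and was one of the 2 members lowest on shSOX11.1. PSMD11, a lid subunit whose level has been linked to proteasome assembly in stem cells, was at 1207 and 1246 against 1332 and 1361. These values did not overlap (0.13, SE 0.14, limma adjusted p = 0.785), but its second probe set lay lower on both shSOX11 arrays, at 211 and 268 in shControl against 201 and 188, and the mean of the probe sets was -0.078. PSMD12 was at 1509 and 1215 against 1551 and 1454. Its shControl arrays enclosed 1 of the shSOX11 values, and its log2 difference of 0.15 (SE 0.16) turned to -0.027 with the mean of the probe sets and to -0.0067 without shControl.2. PSMD3 and PSMD6 had log2 differences of -0.18 and -0.21 with overlapping groups.

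Assembly factors build the particles and are absent from the finished proteasome. The 4 chaperones of core assembly were all lower by the mean, with log2 differences from -0.28 to -0.14. Both shSOX11 arrays lay below both shControl arrays for 3 of the 4, where 24.9% of all genes did so. PSMG1 was at 1779 and 1531 against 1463 and 1257 (-0.28, SE 0.16, limma adjusted p = 0.635). Its partner PSMG2, with which it forms a dimer, was at 6215 and 5525 against 6125 on shSOX11.1 and 4636 on shSOX11.3. PSMG3 was at 1203 and 1172 against 1169 and 927, and its partner PSMG4 at 1225 and 1018 against 992 and 944. The gap between the groups was narrow, since shSOX11.1 lay just under the lower shControl array for PSMG3 and PSMG4. The shControl arrays differed among themselves by a median of -0.19 over these 4 genes (shControl.2 minus shControl.1). Of the chaperones of base assembly, PSMD9 was at 1503 and 1640.1 against 1401 and 1331, without overlap (-0.20, SE 0.14, limma adjusted p = 0.686). PSMD5 and PSMD10, the latter also known as gankyrin, had log2 differences of 0.017 and 0.090 with overlapping groups.

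The activators cap the core in place of the regulatory particle. PSME1, a subunit of the interferon-inducible cap, read 3942 and 3577 in shControl, 3657 in shSOX11.1 and 2737 in shSOX11.3. Its shSOX11.1 value lay between the shControl values, and its log2 difference was -0.25 (SE 0.17, 95% interval -0.63 to 0.14, limma adjusted p = 0.678). Without shSOX11.1 it was -0.46 (limma adjusted p = 0.0288), and without shSOX11.3 it was -0.038. PSME3, which forms a nuclear cap, was at 534 and 525 against 594 and 446, on either side of the shControl arrays (-0.041, SE 0.18). It turned to 0.17 without shSOX11.3, to 0.042 with median centring and to 0.068 without probe sets ending in _x_at. The other probe sets of PSME3 had log2 differences of -0.28, -0.25 and 0.068, and the mean of its probe sets was lower, at -0.12. PSME4, a large nuclear activator, had the highest log2 difference of the 42 at the probe sets used. It was at 449.9 and 442 against 472 and 568 (0.22, SE 0.17, limma adjusted p = 0.709). Its other probe sets overlapped between groups, at 88.0 and 181 against 134 and 223 and at 319.8 and 352 against 371 and 305. PSMF1, which inhibits the core, was at 565 and 582 against 528 and 510.1, without overlap (-0.14, SE 0.15, limma adjusted p = 0.788). Its other, dimmer probe sets were mixed, with log2 differences of -0.29, 0.19 and -0.014, and the mean of its probe sets gave -0.063.

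**Figure D3:**
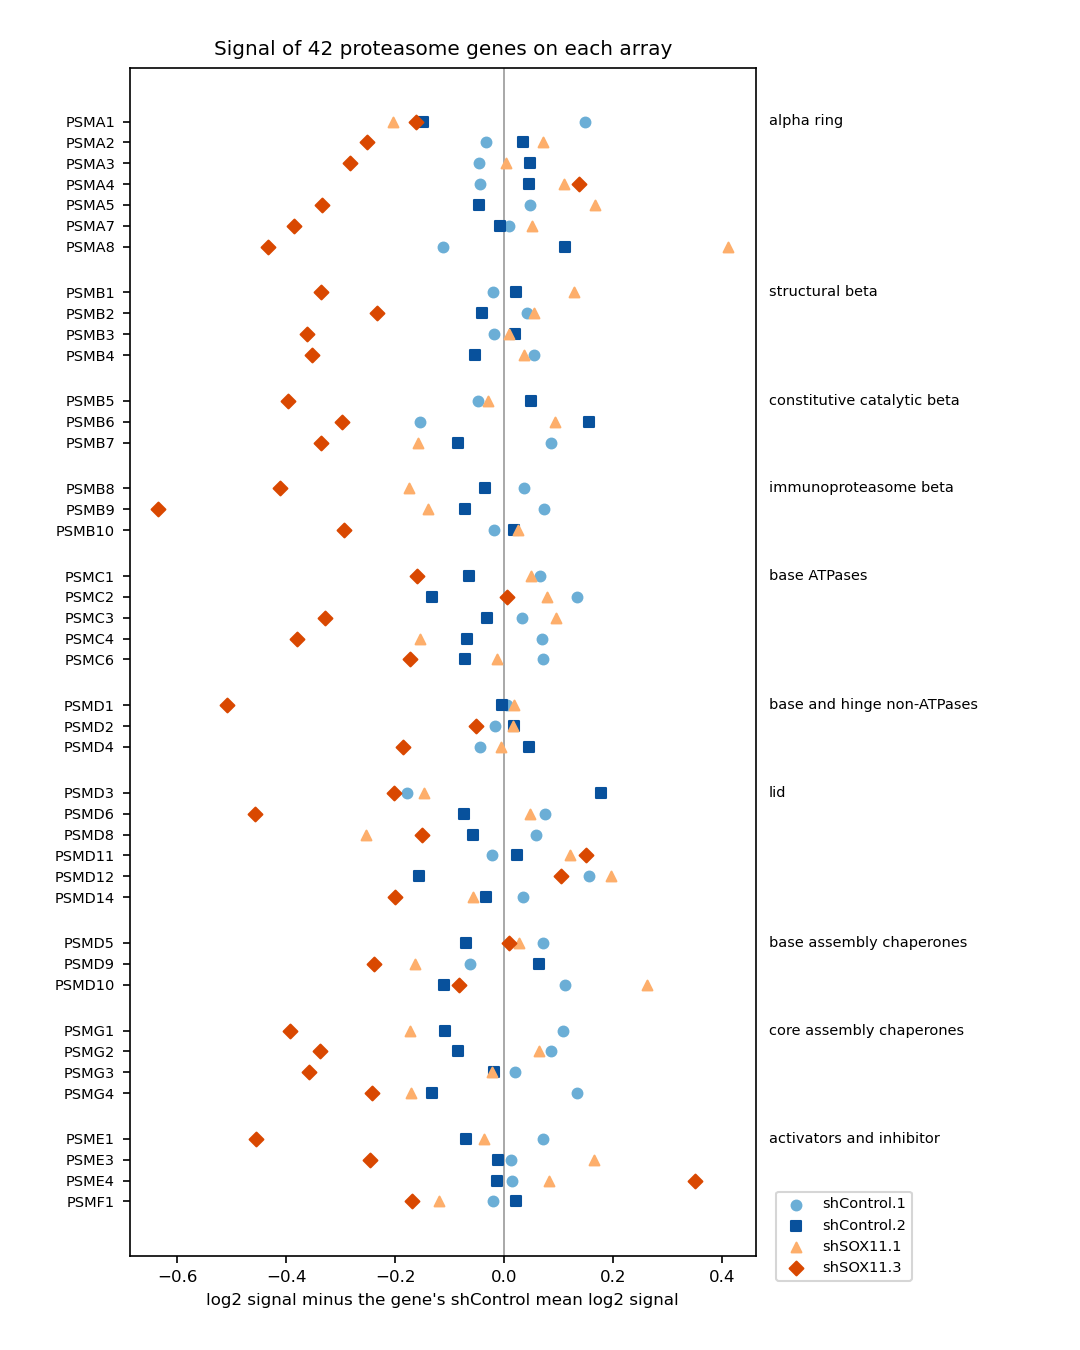
Log2 signal of each of 42 proteasome genes on each of the 4 arrays, minus the gene's mean over the 2 shControl arrays (x axis), grouped by role. Diamonds (shSOX11.3) are leftmost for 33 of the 42 genes, and PSMB9 reaches -0.64 there.

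Probe sets of a gene did not always go the same way. The 42 genes had 81 probe sets, of which 74 passed the filter. These were lower in 58 and higher in 16 cases, with a median log2 difference of -0.12. Of the 20 genes with more than 1 such probe set, 10 were lower at all of them, 2 higher at all and 8 mixed. Tested each on its own among 28202 probe sets, the smallest limma adjusted p of a proteasome probe set was 0.613, at the second one of PSMB1. Probe sets whose annotation holds a second symbol lay outside the rule. Of these, the probe set of PSME2, the partner of PSME1, which the annotation also gives to MIR7703, was at 4649 and 4444 against 4123 and 3719 (log2 difference -0.22). The brighter probe set of PSMA6, shared with PRORP, was at 9976 and 9201 against 9977 and 7671 (-0.13). The dimmer one of PSMA6 was at 600 and 587 against 639 and 567 (0.021). Dim probe sets of PSMA2 shared with C7orf25 were higher on both shSOX11 arrays. They read 57.5 and 70.4 against 87.5 and 75.8 (0.36), and 67.6 and 64.9 against 72.3 and 81.6 (0.21).

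Genes that work with the proteasome were drawn from textbook lists. Of 24 listed partners and regulators of proteasome genes 22 were tested, 11 lower and 11 higher, with a median log2 difference of -0.0020. None passed limma's adjusted p of 0.05 (0 of 22). Under an unadjusted 0.05 lay 2 lower and 1 higher, where 4.98% and 3.4% of all genes did. ZFAND5, which stimulates the proteasome, was at 959 and 689 against 1255 and 1246 (0.62, SE 0.18, limma adjusted p = 0.446). ADRM1, a ubiquitin receptor of the base whose symbol lies outside the PSM series, was at 820.3 and 862 against 699 and 579.6 (-0.40, SE 0.16, limma adjusted p = 0.561). UBQLN4, a shuttle for substrates, had a log2 difference of -0.47 (SE 0.19, limma adjusted p = 0.548). NFE2L1, chosen with its values in view, read 1404 and 1395 against 1392 and 1006 (-0.24, SE 0.18), with shSOX11.1 level with the shControl arrays.

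Ubiquitin and its conjugating enzymes (25 of 34 tested) were lower in 17 and higher in 8 cases, with a median of -0.076. Again 0 passed limma's adjusted p. Under an unadjusted 0.05 lay 2, both lower, where 4.98% of all genes did so. These were UBE2C, a mitotic conjugating enzyme, at -0.41 (SE 0.14), and UBE2O at -0.60 (SE 0.24). Of 16 class I antigen processing genes tested of 18 listed, 9 were lower and 7 higher (median -0.11), with 0 past limma's adjusted p. Under an unadjusted 0.05 lay 2 lower and 1 higher, where 4.98% and 3.4% of all genes did. NLRC5, the activator of class I genes, was at 315.9 and 316 against 164 and 263 (-0.61, SE 0.24, limma adjusted p = 0.547). TAPBP, which loads peptide onto class I, had a log2 difference of -0.46, and the disulfide isomerase PDIA3 was higher by 0.89. TAP1, the peptide transporter gene that lies next to PSMB9 and is transcribed away from it, was chosen with its values in view. It read 791 and 931 against 971 and 965 (0.17, SE 0.15), on the opposite side from PSMB9. Heat shock genes (10 of 13 tested) had a median of -0.065, with 0 under an unadjusted 0.05 in limma. Lowest on shSOX11.3 were 9 of these 10, against 39% of all genes and 57.9% of the 1194 brightest. Of the 10 genes 7 were among those brightest.

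**Figure D4:**
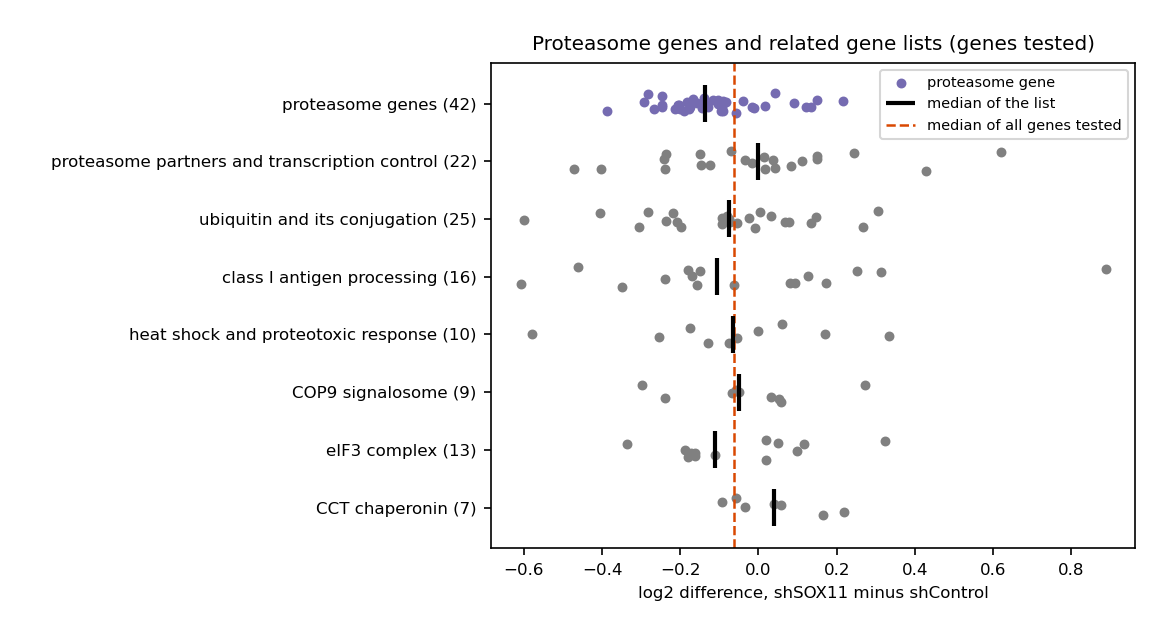
Log2 difference between the groups (x axis) of each tested gene in the proteasome list and in 7 related lists, with the number of genes in brackets, the list median as a bar and the median of all genes as a dashed line. The proteasome genes lie between -0.39 and 0.22, and their median of -0.14 is left of the -0.063 of all genes.

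Other large complexes were set beside the proteasome as a description. The COP9 signalosome and the translation factor eIF3 share folds with the proteasome lid. Of 9 COP9 genes 5 were lower (median -0.049) and of 13 eIF3 genes 7 were lower (median -0.11), with 0 in either list under an unadjusted limma p of 0.05. Of 7 genes of the CCT chaperonin 3 were lower (median 0.041). Of 59 cytosolic ribosomal protein genes 56 were lower (median -0.19). Both shSOX11 arrays lay below both shControl arrays for 27 of the 59, where 24.9% of all genes did so. Under an unadjusted limma p of 0.05 lay 3 of the 59, all lower, where 4.98% of all genes did so. Past the adjusted threshold were 0 of these 59 ribosomal protein genes. Their median was -0.043 for shSOX11.1 and -0.35 for shSOX11.3. Lowest on shSOX11.3 were 54 of the 59, against 39% of all genes and 57.9% of the 1194 brightest. Of the 59 genes 54 were among those brightest. Differences between these lists and the proteasome genes were not tested.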

How the data were processed

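The sources hold 1 table for 4 one-colour Affymetrix U133 Plus 2.0 arrays with biotin label, 2 per group by sample title. The authors deposited a linear signal intensity for each probe set. The submitters' processing notes name MAS5 and Affymetrix Expression Console, with versions and scaling target not given in the sources used here. Each array had a 2% trimmed mean of 150.02. MAS5 subtracts mismatch signals, so dim probe sets are noisier.

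Of 54675 probe sets 41091 had 1 symbol in the platform annotation. Signals were taken to log2 with no pseudocount. Probe sets above 24.83 (the median over the table) in 2 or more samples were kept, and the brightest by mean log2 signal stood for its gene. Without the filter the same probe set was picked for all but 0 of the 42 genes. Groups were compared (shSOX11 minus shControl) with limma 3.58.1 in R 4.3.3 (lmFit, eBayes with intensity trend, two-sided, 2 residual degrees of freedom, 8.39 after moderation), with Benjamini-Hochberg adjustment over 11938 genes at 0.05. The step was tested on simulated data. With 2 samples a group, exact permutation could reach no two-sided p under 0.333 and was not used. The number of arrays limits the precision.

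Full values were given for members under an unadjusted p of 0.05 or 1.5-fold apart on all 4 pairs (0 of either), the 3 largest differences each way, the protease subunits, PSMF1 and the PSME genes, and for up to 3 genes of smallest p in each related list of interest; other named members were chosen after their values were seen. Members and lists were chosen with earlier results of these data known. Promoters came from a RefSeq table (GRCh38.p14). Members outside the single-symbol annotation (such as PSMC5) and 24 listed genes without a probe set of a single symbol here were not analysed. Alternatives were each array left out, probe sets averaged or taken singly or without _x_at, a pseudocount of 32, centring on medians, quantile normalization, no filter or one at the 35th or 65th percentile, limma without trend or robust, an adjusted p of 0.10 and a 2-fold limit.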

Additional observations from a re-analysis of the deposited data

How the results depend on the processing

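With all 4 arrays, the count of proteasome genes past limma's adjusted p was 0 under quantile normalization, median centring, a pseudocount of 32, other filters, the mean of probe sets, no _x_at probe sets, no trend, the robust fit, an adjusted p of 0.10 and every probe set on its own. The count of all genes past it was 0 in each of these settings that test by gene. Over these settings the median log2 difference of the 42 genes stayed negative, from -0.14 to -0.053. That of all genes ran from -0.081 to 0.020. The median of the 42 minus that of all genes ran from -0.085 with the mean of probe sets to -0.025 under quantile normalization. The groups did not overlap for 14 to 16 genes, against 15, with 8 to 14 lower and 2 to 6 higher. Of all genes 17.6% to 25.7% were lower without overlap and 15.1% to 23.3% higher. At an unadjusted limma p under 0.05, quantile normalization gave 1 of 42 genes in place of 0, where 8.33% of all genes lay under it.

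Leaving out an array changed more. The median of the 42 genes ranged from -0.27 without shSOX11.1 to 0.021 without shSOX11.3. Genes without overlap ranged from 23 to 38, with 2 pairs of arrays in place of 4. At 38, without shSOX11.1, 35 were lower and 3 higher, where 48.6% and 29.3% of all genes were. At 23, without shControl.2, 20 were lower and 3 higher, where 39.1% and 26.7% of all genes were. Proteasome genes past the adjusted p ranged from 0 to 8 and those under an unadjusted 0.05 from 0 to 22, both highest without shSOX11.1, where 24.9% of all genes lay under an unadjusted 0.05. All genes past the adjusted p ranged from 0 to 953, with 211 without shSOX11.3. Of 182 values of 13 single genes under an alternative, 170 kept direction and side of the threshold and 10 turned. The turned ones were PSMB7 (0.056), PSMD11 (-0.078) and PSMD12 (-0.027) with the mean of probe sets, PSME3 with median centring (0.042) and without _x_at probe sets (0.068), PSMB6 (0.053) and PSMD12 (-0.0067) without shControl.2, and PSMB10 (0.025), PSMB6 (0.093) and PSME3 (0.17) without shSOX11.3. With an array left out, log2 differences ranged from -0.29 to 0.025 for PSMB10, -0.30 to 0.093 for PSMB6, -0.25 to 0.17 for PSME3 and -0.0067 to 0.31 for PSMD12. The cause was not tested.

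No paired analysis was possible because the groups share no construct, only the number 1 in the sample titles. Of the limits, 4 arrays on 4 constructs leave 2 residual degrees of freedom, the 95% intervals of 31 of 42 genes lay within 1.5-fold either way, and dim probe sets near the signal threshold carry more error.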
